A study of Mus musculus with 20 samples.

Results

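The matricellular and adhesive glycoproteins described here are fibronectin (Fn1), tenascin-C (Tnc), tenascin-X (Tnxb), periostin (Postn), thrombospondins 1, 2 and 3 (Thbs1, Thbs2, Thbs3), SPARC (Sparc), osteopontin (Spp1) and cartilage oligomeric matrix protein (Comp). They were chosen by gene symbol and not by a cut on their values, though with earlier results of these data known. All 10 were among the 24848 genes listed for each library. All 10 also passed the filter on low counts over all 20 libraries, which kept 14751 genes for testing. The libraries came from mesenchymal cells of C57BL/6 mouse liver. Portal mesenchymal stem cells (PMSC, 4 libraries) are stromal progenitors of the tissue that surrounds portal vessels. In culture they gave myofibroblasts, the contractile and matrix-producing cells of scar tissue, which were profiled after 3 days (PMSC-MF-3d, 4 libraries) and 7 days (PMSC-MF-7d, 4 libraries). Hepatic stellate cells (HSC, 4 libraries) are pericytes of the liver sinusoids that store vitamin A, and the myofibroblasts they gave in culture form the fifth group (HSC-MF-7d, 4 libraries). Sample titles put that group at day 7 and the series description at day 3, so its time is uncertain, and it was set against both portal cultures. No treatment, mutation or animal age is named for any group. The sources used here give neither the isolation of the cells nor whether libraries of 1 group stem from different mice or dishes. P-values therefore measure only the spread between these libraries, which may be technical.

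Matricellular proteins are secreted into the extracellular matrix, where they act less as building material than as signals: they bind collagens, growth factors and cell surface receptors such as integrins, CD36, CD47 and syndecans, and alter how firmly cells adhere. Fibronectin differs in that cells also assemble it into fibrils, on which collagen and other matrix proteins are deposited. In the liver, several of these proteins are known for low levels in healthy stroma and high levels in scars, where portal fibroblasts and stellate cells are the main cells that become myofibroblasts. Hepatocytes also make fibronectin, in its plasma form, and bile duct cells and macrophages make osteopontin.

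PMSC libraries held 11810532 to 21438753 expected counts each. Those of PMSC-MF-3d held 23641579 to 24258856, those of PMSC-MF-7d 22738017 to 26675589, those of HSC-MF-7d 13572278 to 18382038 and those of HSC 14806349 to 18650355. The labelled cell types were checked against their markers. All 12 portal mesenchymal markers reached 10 CPM (counts scaled to a common library size) in PMSC and 4 of 12 did in HSC, with Cd34 at 1267 CPM in PMSC and 8.35 CPM in HSC. All 14 stellate markers reached that level in HSC, with Lrat, the enzyme that esterifies retinol, at 1568 CPM. In PMSC, 13 of 14 did so at a far lower sum (899 to 1470.0 CPM, against 20400.0 to 29500.0 CPM in HSC). The stellate sum was 1400.0 to 1610.0 CPM in HSC-MF-7d, with 8 of 14 at 10 CPM or more and Lrat at 0.64 CPM. The markers did not move alike. Nes was higher in HSC-MF-7d than in HSC (785.8 and 127.1 CPM), and Des was only somewhat lower (142.3 and 215.7 CPM). Across 12 myofibroblast markers the sums were 26500.0 to 37800.0 CPM in PMSC, 19600.0 to 21800.0 CPM in PMSC-MF-3d and 29100.0 to 34200.0 CPM in PMSC-MF-7d. No cultured portal library exceeded the PMSC range. In these groups, in that order, Acta2 averaged 189.8, 3757 and 6060.0 CPM and Col3a1 10690.0, 1071 and 1310.0 CPM. The sums were 2130.0 to 3860.0 CPM in HSC and 11600.0 to 13600.0 CPM in HSC-MF-7d. Fresh HSC libraries also carried markers of other liver cells, summing to 4730.0 to 23600.0 CPM for 17 hepatocyte genes, 8350.0 to 10300.0 CPM for 14 endothelial genes and 3170.0 to 11800.0 CPM for 16 Kupffer cell and leukocyte genes. The same sums in PMSC were 1270.0 to 2240.0, 93.3 to 361 and 30.1 to 41.2 CPM. Cyp2e1 and Trf made up most of the PMSC hepatocyte sum (814.6 and 800.7 CPM, against 164 and 1954 CPM in HSC), while Alb averaged 65.4 CPM in PMSC and 6463 CPM in HSC, so that sum is no measure of hepatocyte RNA. In the 3 cultured groups the 3 sums were at most 117, 329 and 62.4 CPM. The part of these other cells in the members' values in fresh HSC was not tested. In bulk RNA, fewer cells of a type and less RNA per cell cannot be told apart.

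The members were described through levels in CPM, given for replicates 1 to 4 in that order, and through log2 fold changes with their standard error (± SE). Calls rest on edgeR's quasi-likelihood test with Benjamini-Hochberg adjustment over all 14751 genes, at an adjusted p under 0.05. Comparisons that share a group of libraries, such as those of PMSC-MF-3d and PMSC-MF-7d with PMSC, are not independent of each other. Levels of different genes were compared only in TPM, which divides by transcript length and gives each transcript's share of a library. In TPM the 10 genes together made up 0.73% ± 0.05 of all transcripts for PMSC, 0.77% ± 0.02 after 3 days and 1.28% ± 0.10 after 7 days of portal culture, 1.42% ± 0.06 for HSC-MF-7d and 0.33% ± 0.04 for HSC (SD, n = 4 each). Sparc, Thbs1 and Fn1 held most of that in the portal groups. Fresh HSC differed in having very little Thbs1, and HSC-MF-7d in having a large share of Tnc.

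**Figure D1:**
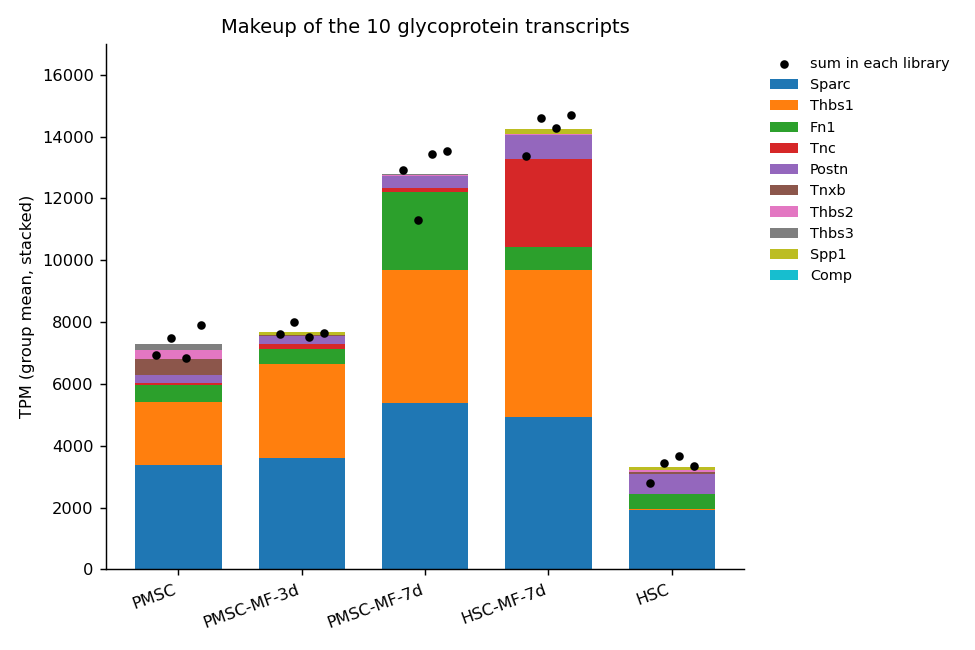
Stacked bars give the mean TPM of each of the 10 genes in the 5 groups (n = 4 libraries each), and black points give the sum in each library. Sparc is the largest band of every bar, Thbs1 comes next except in fresh HSC, where Postn and Fn1 do, and Tnc forms a thick band in HSC-MF-7d alone.

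Of the 10 genes, Sparc had the highest TPM in PMSC, PMSC-MF-3d, PMSC-MF-7d, HSC-MF-7d and HSC, at 46.2%, 46.9%, 42.1%, 34.6% and 57.5% of the members' transcripts. Thbs1 came next in all groups but HSC, where it held 1.43% and Postn came next with 19.2%. The share of Fn1 was 19.8% in PMSC-MF-7d and lay between 5.09% and 14.3% in the other 4 groups. The share of Tnc was 20.1% in HSC-MF-7d and at most 1.83% elsewhere. Tnxb, Thbs2 and Thbs3 held 7.04%, 4.00% and 2.31% in fresh PMSC, and none of them averaged more than 0.31% in any cultured group.

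Promoter sequences are shown for 4 of the members with large changes between fresh and cultured cells. Tnxb, Thbs2 and Thbs3 fell together in the portal cultures, and Tnc had the largest rise of the members in the stellate cultures. Each run covers 250 bases before to 50 bases after an annotated transcription start, on the gene's own strand, from RefSeq on GRCm38.p6. Their positions are chr17:34670285-34670584 on the plus strand for Tnxb, chr17:14694213-14694512 on the minus strand for Thbs2, chr3:89214930-89215229 on the plus strand for Thbs3 and chr4:64046887-64047186 on the minus strand for Tnc. Capitals mark matches, on either strand, to the motifs searched.
Tnxb promoter: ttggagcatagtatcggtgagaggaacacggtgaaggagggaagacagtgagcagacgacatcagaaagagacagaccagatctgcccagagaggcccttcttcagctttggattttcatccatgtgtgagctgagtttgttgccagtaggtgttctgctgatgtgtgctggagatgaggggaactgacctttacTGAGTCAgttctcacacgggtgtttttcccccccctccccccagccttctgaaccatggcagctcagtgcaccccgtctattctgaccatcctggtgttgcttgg
Thbs2 promoter: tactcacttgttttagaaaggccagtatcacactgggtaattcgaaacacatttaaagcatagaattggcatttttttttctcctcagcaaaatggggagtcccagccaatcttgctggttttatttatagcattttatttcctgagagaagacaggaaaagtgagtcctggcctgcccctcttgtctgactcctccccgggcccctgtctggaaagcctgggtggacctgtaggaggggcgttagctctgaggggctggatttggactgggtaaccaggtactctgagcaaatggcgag
Thbs3 promoter: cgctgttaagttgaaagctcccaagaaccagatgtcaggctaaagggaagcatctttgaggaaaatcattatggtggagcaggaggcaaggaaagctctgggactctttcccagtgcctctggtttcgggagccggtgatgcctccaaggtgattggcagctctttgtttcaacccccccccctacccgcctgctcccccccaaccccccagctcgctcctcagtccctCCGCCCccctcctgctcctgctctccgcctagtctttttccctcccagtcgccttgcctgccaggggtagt
Tnc promoter: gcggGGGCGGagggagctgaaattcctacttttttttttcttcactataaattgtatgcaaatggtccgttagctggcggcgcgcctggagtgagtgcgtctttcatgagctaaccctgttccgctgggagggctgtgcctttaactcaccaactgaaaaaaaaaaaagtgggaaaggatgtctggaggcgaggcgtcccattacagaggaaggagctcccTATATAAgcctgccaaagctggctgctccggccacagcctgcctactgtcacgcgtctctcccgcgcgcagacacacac

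The motifs searched were TGANTCA for the AP-1 site, GGAATG for the TEAD site, TATATAA for the TATA box, GGGCGG for the GC box and, by name, a CArG box, in the promoters of 7 of the 10 members with 10 annotated starts. Tnxb held an AP-1 site 55 bases before the annotated start shown, which 7.81% of 32851 promoters of the same length hold. That window, from 34670285, lies inside the RefSeq span of Tnxb, which begins at 34660453. No window at the beginning of the span was searched. Tnc held a TATA box 29 bases before its start (3.24% of promoters) and a GC box 246 bases before it (35.7% of promoters). Its other annotated start, whose window overlaps the one shown, shares that GC box. Thbs3 held a GC box 21 bases before its start, which reads CCGCCC on the strand shown. Thbs2 held none of the 5 motifs, so the windows shown for the 3 genes that fell together in portal cultures had no searched motif in common. Postn held a TATA box 28 bases before the later of its starts, and no TEAD site (14.7% of promoters) or CArG box (1.63%) lay in any member's window. The promoters of Fn1, Thbs1 and Comp are named only.

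On GRCm38.p6, the assembly known as mm10, Fn1 spans chromosome 1 from 71585473 to 71653280, Sparc chromosome 11 from 55394159 to 55420080 and Postn chromosome 3 from 54359267 to 54391041. Tnc spans chromosome 4 from 63959785 to 64047015 and Tnxb chromosome 17 from 34660453 to 34719815. Thbs1 spans chromosome 2 from 118111876 to 118127133, Thbs2 chromosome 17 from 14665500 to 14694262, Thbs3 chromosome 3 from 89215180 to 89226841, Comp chromosome 8 from 70373548 to 70382066 and Spp1 chromosome 5 from 104435111 to 104441053. These RefSeq spans cover exons and introns, and each value counts all annotated transcripts of the gene. No other gene in the deposited tables overlaps them. RefSeq places further genes across part of 5 members: 8030451A03Rik across Tnc, Gm24389 and Cyp21a2-ps across Tnxb, Gm31095 across Postn, LOC115489723 across Thbs3 and Gm51533 across Comp. How strand entered the counting is not stated in any source at hand, so reads of such pairs cannot be told apart.

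Fibronectin was high in every group and highest in the 7-day portal cultures. Fn1 had 2072, 2437, 3312 and 2244 CPM in PMSC, 1801, 1922, 1777 and 1899.8 CPM in PMSC-MF-3d and 9792, 7154, 8307 and 9417 CPM in PMSC-MF-7d. It had 2756, 2272, 2136 and 2509 CPM in HSC-MF-7d and 1771, 1993, 1728 and 1221 CPM in HSC. The 4 PMSC-MF-7d libraries lay above all 16 others, and PMSC, HSC-MF-7d, PMSC-MF-3d and HSC followed in order of their means. In that order PMSC and HSC-MF-7d overlapped (adjusted p = 0.74), as did PMSC-MF-3d and HSC (adjusted p = 0.40).

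Fn1 rose in the later part of the portal culture. PMSC-MF-7d averaged 8667 ± 1189.8 CPM and PMSC-MF-3d 1850.0 ± 71.6 CPM (SD, n = 4 each), which is 2.23 ± 0.16 on the log2 scale (edgeR adjusted p = 6.4e-09). Against PMSC the log2 fold change of PMSC-MF-7d was 1.78 ± 0.15 (adjusted p = 2.3e-09). Between PMSC-MF-3d and PMSC it was -0.44 ± 0.15 (adjusted p = 0.011), but this small fall rested on the scaling and on 1 library: it was 0.06 with library totals in place of trimmed means (TMM) and -0.28 without PMSC replicate 3 (adjusted p = 0.072). HSC-MF-7d were 0.53 ± 0.15 above HSC (adjusted p = 0.0037). Fn1 was 0.58 ± 0.15 higher in PMSC than in HSC (adjusted p = 0.0017), a call lost with library totals (0.25, adjusted p = 0.13) and with limma on log2(TPM + 1) (0.18, adjusted p = 0.25).

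Sparc, also called osteonectin, binds collagen and tempers adhesion, and it varied little among the cultured groups and PMSC. It had 5178, 4385, 4780.4 and 5441 CPM in PMSC, 4300.1, 3990.5, 3861 and 4198 CPM in PMSC-MF-3d and 5774, 5122, 5505 and 6394 CPM in PMSC-MF-7d. It had 5044, 5290.1, 4832 and 5371 CPM in HSC-MF-7d and 1793, 2352, 2276 and 2178 CPM in HSC. Every HSC library lay below the other 16. Sparc was 2.30-fold higher in PMSC than in HSC (SE 0.10 on the log2 scale, adjusted p = 1.2e-09), and the log2 fold change was 1.26 ± 0.10 for HSC-MF-7d over HSC (adjusted p = 4.9e-10).

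Within the portal lineage the changes of Sparc were small. PMSC-MF-7d were 0.48 ± 0.10 above PMSC-MF-3d (adjusted p = 6.2e-04). PMSC-MF-3d stood at -0.28 ± 0.10 against PMSC (adjusted p = 0.013), a direction that turned to 0.23 with library totals (adjusted p = 0.038) and to 0.11 with limma on log2(TPM + 1), and a call lost without PMSC-MF-3d replicate 2 or 3 (adjusted p = 0.057 and 0.072) and without the filter (0.054). PMSC-MF-7d against PMSC gave 0.20 ± 0.10 (adjusted p = 0.059), which passed without PMSC replicate 4 or PMSC-MF-7d replicate 2 or 3 (0.25 to 0.28, adjusted p at most 0.044), with library totals (0.66), with limma (0.68) and without the filter (0.26, adjusted p = 0.024).

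Periostin, an integrin ligand that promotes collagen crosslinking, differed between the lineages but passed the test in no comparison of cultured with fresh cells. Postn had 419, 431, 426 and 566 CPM in PMSC, 454, 321, 351 and 393 CPM in PMSC-MF-3d and 438, 366, 486 and 761 CPM in PMSC-MF-7d. It had 959.6, 958, 983 and 907 CPM in HSC-MF-7d and 722, 815, 1137 and 789.6 CPM in HSC. The stellate lineage was higher, fresh and cultured. PMSC were lower than HSC by a log2 fold change of -0.91 ± 0.18 (adjusted p = 1.8e-04), and PMSC-MF-7d lower than HSC-MF-7d by -0.89 ± 0.18 (adjusted p = 5.0e-04).

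From fresh to cultured cells the values of Postn were small. HSC-MF-7d against HSC gave 0.14 ± 0.18 (adjusted p = 0.51), PMSC-MF-3d against PMSC -0.28 ± 0.18 (adjusted p = 0.17) and PMSC-MF-7d against PMSC 0.15 ± 0.18 (adjusted p = 0.45). The value for PMSC-MF-3d turned to 0.23 with library totals and that for PMSC-MF-7d passed with them (0.61, adjusted p = 0.0049). PMSC-MF-7d against PMSC-MF-3d gave 0.43 ± 0.18 (adjusted p = 0.071), which passed without PMSC-MF-7d replicate 2 (0.56, adjusted p = 0.019) and with limma on log2(TPM + 1) (0.49, adjusted p = 0.045).

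**Figure D2:**
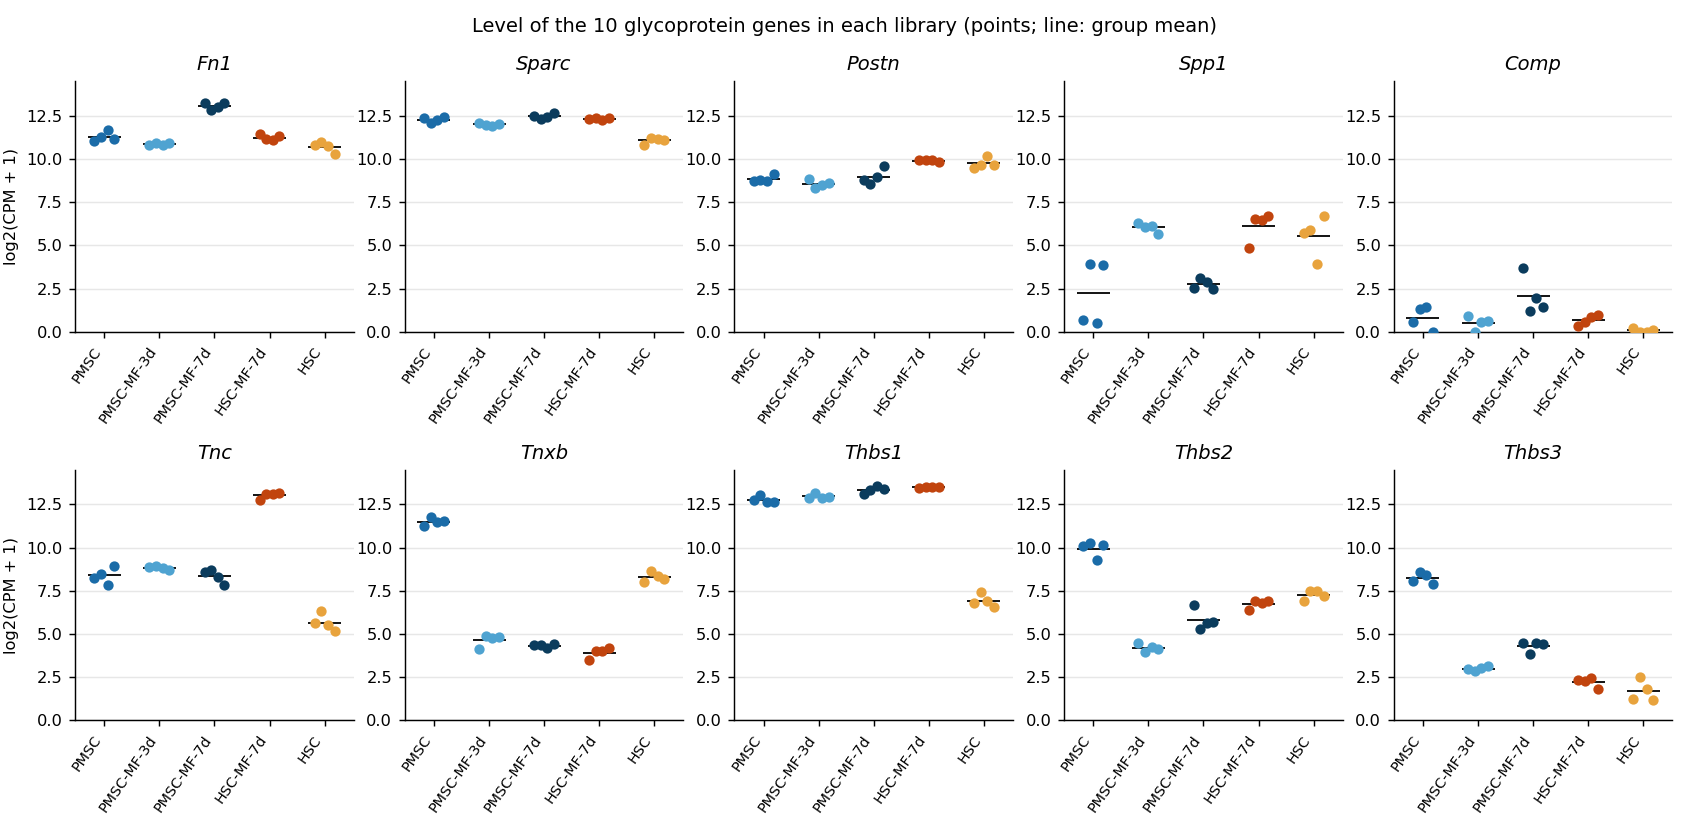
Each point is the log2(CPM + 1) of a gene in 1 library, by group (n = 4 each), with a line at the group mean. Tnc stands near 13 in HSC-MF-7d only, Thbs1 is low in fresh HSC only, and Tnxb, Thbs2 and Thbs3 are highest in fresh PMSC.

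The tenascins moved in opposite ways on culture of stellate cells. Tenascin-C, a large multi-armed glycoprotein that loosens cell adhesion and is known to appear in wounds and scars, had 302, 359.8, 231 and 497 CPM in PMSC, 478, 485, 441 and 409 CPM in PMSC-MF-3d and 380.4, 408, 315 and 230.2 CPM in PMSC-MF-7d. It had 7000.4, 8933, 8933 and 9048 CPM in HSC-MF-7d and 47.9, 78.1, 44.1 and 34.7 CPM in HSC. All 4 HSC-MF-7d libraries were far above every other library, and all 4 HSC libraries were below every other.

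Tnc had the largest rise of any member. HSC-MF-7d averaged 8479 ± 987 CPM and HSC 51.2 ± 18.8 CPM (SD, n = 4 each), 165.6-fold higher (log2 fold change 7.37 ± 0.30, adjusted p = 6.3e-14). PMSC were 2.76 ± 0.25 above HSC (adjusted p = 5.3e-09). In the portal cells the values were small and none passed: the log2 fold change was 0.38 ± 0.23 in PMSC-MF-3d over PMSC (adjusted p = 0.13), -0.44 ± 0.23 in PMSC-MF-7d over PMSC-MF-3d (adjusted p = 0.14) and -0.06 ± 0.23 in PMSC-MF-7d over PMSC (adjusted p = 0.82). The value for PMSC-MF-3d passed without PMSC replicate 4 (0.61, adjusted p = 0.020), with library totals (0.89, adjusted p = 0.0017) and with limma on log2(TPM + 1) (0.81, adjusted p = 0.0029). That for PMSC-MF-7d over PMSC-MF-3d passed in a fit of only those groups (-0.46, adjusted p = 0.045), and that for PMSC-MF-7d over PMSC turned to 0.40 with library totals. The 2 lineages' 7-day changes differed by -7.43 ± 0.36 (adjusted p = 3.3e-12). PMSC-MF-7d had 0.039 times the Tnc level of HSC-MF-7d (log2 fold change -4.67 ± 0.27, adjusted p = 6.3e-11), and PMSC-MF-3d were lower than them by a log2 fold change of -4.23 ± 0.26 (adjusted p = 1.3e-10).

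Tenascin-X, which spaces and strengthens collagen fibrils in resting connective tissue, fell steeply in both lineages in culture. Tnxb had 2412, 3415, 2902 and 2945 CPM in PMSC, 16.5, 28.9, 26.3 and 27.4 CPM in PMSC-MF-3d and 19.8, 19.4, 17.3 and 20.1 CPM in PMSC-MF-7d. It had 10.3, 15.3, 15.3 and 17.1 CPM in HSC-MF-7d and 261, 404, 320.4 and 284 CPM in HSC. Every PMSC library was above every HSC library, and every HSC library above every cultured one. The log2 fold change was 3.20 ± 0.18 for PMSC over HSC (adjusted p = 7.7e-12).

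Most of the fall of Tnxb in the portal lineage had taken place by day 3. PMSC-MF-3d were lower than PMSC by a log2 fold change of -6.88 ± 0.22 (adjusted p = 1.2e-15), which is 0.0085 times the PMSC level. PMSC-MF-7d against PMSC-MF-3d gave -0.37 ± 0.17 (adjusted p = 0.10), which passed without PMSC-MF-3d replicate 1 (-0.53, adjusted p = 0.016). HSC-MF-7d were lower than HSC by -4.45 ± 0.20 (adjusted p = 1.6e-13), and the portal fall at day 7 was larger by -2.80 ± 0.25 (adjusted p = 1.2e-08). The 3 cultured groups ended close together. PMSC-MF-7d against HSC-MF-7d gave 0.40 ± 0.18 (adjusted p = 0.069), which passed in a fit of only those groups (adjusted p = 0.028) and without HSC-MF-7d replicate 4 (0.50, adjusted p = 0.043).

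The balance of the tenascins turned round in both lineages. In TPM, Tnc stood at 0.108 to 0.229 times Tnxb in PMSC libraries, 20.3 to 39.4 times in PMSC-MF-3d and 15.5 to 28.6 times in PMSC-MF-7d. It stood at 720.0 to 927 times in HSC-MF-7d and 0.166 to 0.263 times in HSC. In the portal cells this shift came with the fall of Tnxb, and in the stellate cells with both the fall of Tnxb and the rise of Tnc.

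**Figure D3:**
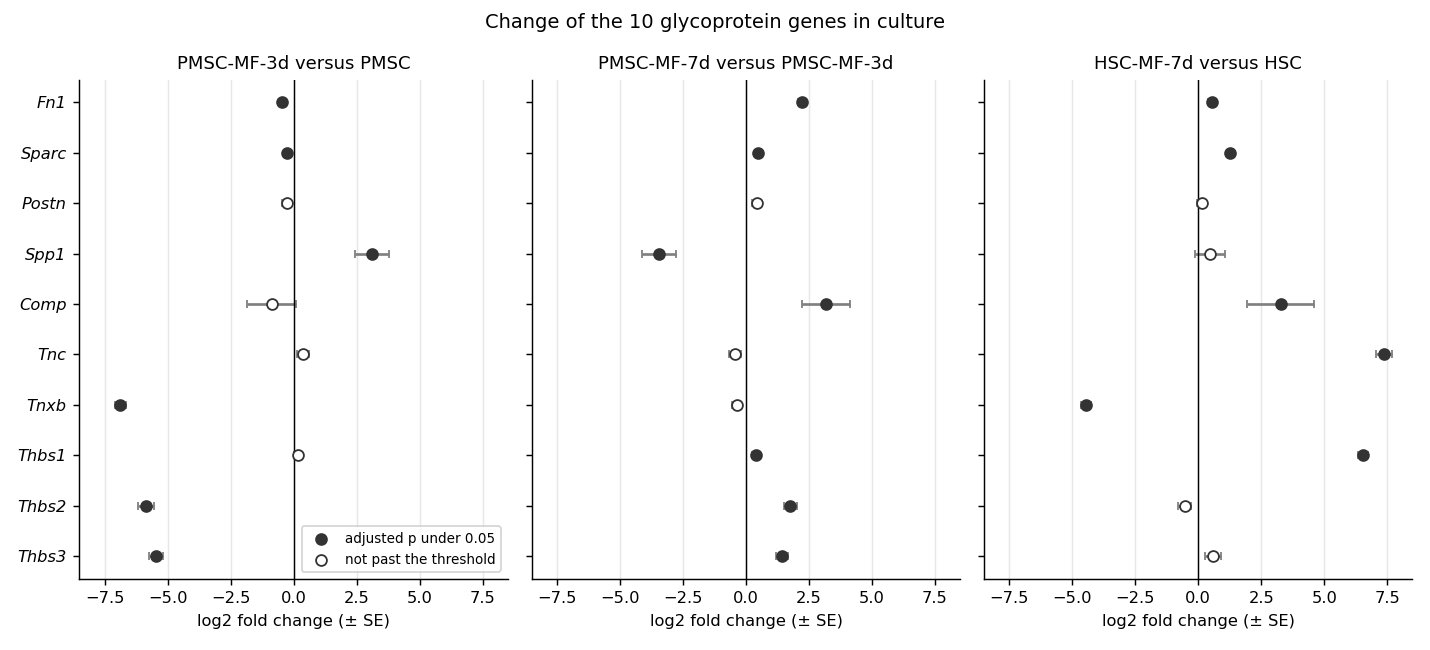
Log2 fold changes (± SE) of the 10 genes for PMSC-MF-3d over PMSC, PMSC-MF-7d over PMSC-MF-3d and HSC-MF-7d over HSC; filled points have an edgeR adjusted p under 0.05. Tnxb lies far left in the left and right panels, Thbs2 and Thbs3 in the left one only, and Tnc and Thbs1 far right in the right panel; the small values of Fn1, Sparc and Postn in the left panel turn positive with library totals.

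The thrombospondins split between the lineages and within the family. Thrombospondin 1, a trimeric protein that activates latent TGF-beta and binds CD36 and CD47, had 6917, 8511, 6462 and 6313 CPM in PMSC, 7592, 8948, 7583 and 7815 CPM in PMSC-MF-3d and 8834, 10310.0, 12268 and 10711 CPM in PMSC-MF-7d. It had 11186, 11591, 11613 and 11563 CPM in HSC-MF-7d and 110.4, 174, 117 and 95.03 CPM in HSC. Fresh HSC alone were low, and every library of the other groups was far above them.

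Thbs1 was 56.8-fold higher in PMSC than in HSC (log2 fold change 5.83 ± 0.18, adjusted p = 2.2e-15), and 92.5-fold higher in HSC-MF-7d than in HSC (6.53 ± 0.19, adjusted p = 4.8e-16). Platelets carry much thrombospondin 1 protein, and 6 platelet markers summed to 6.37 to 14.6 CPM in PMSC and 84.5 to 115 CPM in HSC (Itga2b alone averaged 9.60 and 88.4 CPM, and Pf4 1.85 and 7.93 CPM). The part of platelets in the Thbs1 values was not tested. Within the portal lineage Thbs1 was 0.58 ± 0.15 higher in PMSC-MF-7d than in PMSC (adjusted p = 0.0015). PMSC-MF-3d against PMSC gave 0.18 ± 0.15 (adjusted p = 0.27), which passed with library totals (0.69, adjusted p = 6.0e-05). PMSC-MF-7d against PMSC-MF-3d gave 0.40 ± 0.15 (adjusted p = 0.040), a call lost without any of PMSC-MF-3d replicates 1, 3 and 4 or PMSC-MF-7d replicates 2, 3 and 4 (0.32 to 0.41, adjusted p = 0.057 to 0.14). The 7-day changes of the lineages differed by -5.95 ± 0.22 (adjusted p = 1.1e-13). The levels in PMSC-MF-7d and HSC-MF-7d were close (-0.13 ± 0.15, adjusted p = 0.52), while PMSC-MF-3d were lower than HSC-MF-7d (-0.52 ± 0.15, adjusted p = 0.0051).

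Thrombospondin 2, a close relative of thrombospondin 1 that restrains vessel growth but does not activate TGF-beta, followed another course. Thbs2 had 1097, 1212, 632 and 1113 CPM in PMSC, 21.0, 14.3, 18.2 and 16.6 CPM in PMSC-MF-3d and 101, 37.4, 49.1 and 50.4 CPM in PMSC-MF-7d. It had 82.4, 119.9, 109.7 and 117 CPM in HSC-MF-7d and 120.3, 178, 178 and 145 CPM in HSC. It was highest in fresh PMSC, lowest in PMSC-MF-3d and moderate elsewhere.

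Thbs2 was 2.70 ± 0.26 higher in PMSC than in HSC (adjusted p = 1.8e-08). PMSC-MF-3d had 0.017 times the PMSC level (log2 fold change -5.85 ± 0.30, adjusted p = 1.0e-12), and PMSC-MF-7d recovered a little, 3.39-fold above PMSC-MF-3d (1.76 ± 0.26, adjusted p = 3.1e-05) and still -4.09 ± 0.28 against PMSC (adjusted p = 6.7e-11). HSC-MF-7d against HSC gave -0.54 ± 0.25 (adjusted p = 0.057), with all 4 HSC-MF-7d libraries below all 4 HSC libraries. That fall passed with DESeq2 (-0.55, adjusted p = 0.035), in a fit of only those groups (-0.50, adjusted p = 0.012) and without HSC replicate 1 (-0.63, adjusted p = 0.049). The 7-day changes of the lineages differed by -3.56 ± 0.36 (adjusted p = 7.2e-08). PMSC-MF-7d were lower than HSC-MF-7d by a log2 fold change of -0.85 ± 0.25 (adjusted p = 0.0083) although PMSC-MF-7d replicate 1 lay within the HSC-MF-7d range, and the adjusted p was 0.050 in a fit of only those groups.

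Thrombospondin 3, which forms pentamers, was largely a transcript of fresh portal cells. Thbs3 had 266, 376, 344 and 238 CPM in PMSC, 6.81, 6.37, 7.19 and 7.71 CPM in PMSC-MF-3d and 21.3, 13.3, 20.9 and 20.9 CPM in PMSC-MF-7d. It had 4.10, 3.80, 4.50 and 2.55 CPM in HSC-MF-7d and 1.39, 4.77, 2.48 and 1.31 CPM in HSC. Every PMSC library was far above every other library, and the PMSC-MF-7d libraries came next.

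The log2 fold change of Thbs3 was 6.93 ± 0.31 for PMSC over HSC (adjusted p = 2.8e-13), the largest of the members, or 122-fold. PMSC-MF-3d were lower than PMSC by -5.44 ± 0.28 (adjusted p = 8.1e-13). PMSC-MF-7d were 1.44 ± 0.25 above PMSC-MF-3d (adjusted p = 1.4e-04) and 2.36 ± 0.27 above HSC-MF-7d (adjusted p = 6.4e-07). HSC-MF-7d against HSC gave 0.57 ± 0.31 (adjusted p = 0.11), which passed without HSC replicate 2 (1.10, adjusted p = 0.0018) and with limma on log2(TPM + 1) (0.58, adjusted p = 0.024). The difference between the lineages' 7-day changes was -4.57 ± 0.39 (adjusted p = 8.3e-09).

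In TPM the thrombospondin makeup of the libraries therefore differed widely. Thbs1 stood at 5.75 to 10.4 times Thbs2 in PMSC libraries, 366 to 633 times in PMSC-MF-3d, 88.7 to 280.0 times in PMSC-MF-7d, 97.9 to 137 times in HSC-MF-7d and 0.664 to 0.987 times in HSC. Fresh HSC were the only group in which Thbs2 exceeded Thbs1. Thbs3 stood at 0.0708 to 0.0999 times Thbs1 in PMSC and at most 0.00451 times in every cultured library.

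Comp, the pentameric thrombospondin of cartilage and tendon, was near the limit of detection. It had 0.47, 1.52, 1.67 and 0 CPM in PMSC, 0.88, 0, 0.48 and 0.56 CPM in PMSC-MF-3d and 11.7, 1.26, 2.86 and 1.73 CPM in PMSC-MF-7d. It had 0.26, 0.51, 0.82 and 0.96 CPM in HSC-MF-7d and 0.18, 0, 0 and 0.065 CPM in HSC. A count of 0 allows up to 3 counts in a library. PMSC-MF-7d replicate 1, with 322 counts, stood apart from the other 19 libraries.

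Comp passed the test in 5 of the 7 comparisons of groups, and several of those calls rested on single libraries. PMSC-MF-7d against PMSC-MF-3d gave 3.18 ± 0.94 (adjusted p = 0.013), against PMSC 2.31 ± 0.93 (adjusted p = 0.031) and against HSC-MF-7d 2.78 ± 0.94 (adjusted p = 0.020). Without PMSC-MF-7d replicate 1 these were 2.01, 1.16 and 1.62, and none passed (adjusted p = 0.11, 0.26 and 0.17). The call against PMSC was also lost without PMSC replicate 1 or 4 (adjusted p = 0.073 and 0.062) and in a fit of only those groups (adjusted p = 0.058), and that against HSC-MF-7d without HSC-MF-7d replicate 1 or 2 (adjusted p = 0.062 and 0.055). The HSC libraries held 4 counts of Comp in all. PMSC over HSC gave 3.74 ± 1.32 (adjusted p = 0.015), or 5.08 without HSC replicate 1, and did not pass with limma on log2(TPM + 1) (adjusted p = 0.18). HSC-MF-7d over HSC gave 3.27 ± 1.33 (adjusted p = 0.032), or 4.63 without HSC replicate 1, and was lost without HSC replicates 2, 3 or 4 or HSC-MF-7d replicates 3 or 4 (adjusted p = 0.056 to 0.081). In fits of only the compared groups, Comp did not pass the filter for PMSC against HSC or for HSC-MF-7d against HSC. These calls thus exist only because the filter was applied over all groups, and both enter the counts of members below.

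Osteopontin, a phosphorylated ligand of integrins and CD44, rose by day 3 of the portal culture and fell again by day 7. Spp1 had 0.60, 14.3, 0.42 and 13.5 CPM in PMSC, 76.7, 66.7, 67.4 and 49.7 CPM in PMSC-MF-3d and 4.89, 7.79, 6.30 and 4.67 CPM in PMSC-MF-7d. It had 28.3, 91.1, 86.4 and 102 CPM in HSC-MF-7d and 50.5, 58.1, 13.9 and 102 CPM in HSC. PMSC-MF-3d lay above every PMSC and PMSC-MF-7d library.

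The log2 fold change of Spp1 was 3.11 ± 0.68 for PMSC-MF-3d over PMSC (adjusted p = 3.5e-04) and -3.46 ± 0.68 for PMSC-MF-7d over PMSC-MF-3d (adjusted p = 5.2e-04). PMSC-MF-7d ended at -3.70 ± 0.68 against HSC-MF-7d (adjusted p = 1.7e-04) and at -0.36 ± 0.68 against PMSC (adjusted p = 0.65), the last of no fixed direction. PMSC stood at -2.89 ± 0.68 against HSC (adjusted p = 7.6e-04), with the ranges overlapping. Fresh libraries of both lineages were split. In PMSC, replicates 2 and 4 had the Spp1 counts, and 11 cholangiocyte markers summed to 116 and 101 CPM there, against 65.7 and 82.7 CPM in replicates 1 and 3. Most of that sum was Sox9, at 75.1 CPM on average, while Epcam, Krt7 and Krt19 averaged 0.90, 0.46 and 0.94 CPM. In HSC, replicate 3 had the least Spp1 and the lowest cholangiocyte sum, 29.4 CPM, against 83.9 to 134 CPM in the other HSC libraries. It also had the lowest hepatocyte sum, 4735 CPM. Spp1 did not follow the cholangiocyte sum among the others: replicate 4 had 102 CPM at a sum of 83.9, and replicate 2 had 58.1 CPM at 134. Krt8, Krt18 and Cdh1 made up most of the HSC sum (34.65, 27.12 and 12.58 CPM on average), while Epcam, Krt7 and Krt19 averaged 1.99, 0.59 and 1.46 CPM. The part of bile duct cells in Spp1 was not tested.

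Counted over the 10 members, PMSC against HSC had 8 higher and 2 lower, against a background of 73.7% of all tested genes called in either direction, 33.6% higher and 40.1% lower. PMSC-MF-3d against PMSC had 1 higher and 5 lower, against 78.3% of genes called (37.2% higher, 41.1% lower). PMSC-MF-7d against PMSC-MF-3d had 6 higher and 1 lower, against 36% called (18.6% higher, 17.4% lower). PMSC-MF-7d against PMSC had 3 higher and 3 lower, against 77% called (38.1% higher, 39% lower). HSC-MF-7d against HSC had 5 higher and 1 lower, against 74.5% called (36% higher, 38.5% lower). PMSC-MF-7d against HSC-MF-7d had 3 higher and 4 lower, against 47.1% called (23.9% higher, 23.1% lower), and PMSC-MF-3d against HSC-MF-7d had 2 higher and 6 lower, against 54.6% called (27.2% higher, 27.4% lower). With library totals in place of TMM the proportion of higher genes among all calls moved to 33.3% (45.6% with TMM) for PMSC against HSC, 61.7% (47.5%) for PMSC-MF-3d against PMSC, 63.5% (49.4%) for PMSC-MF-7d against PMSC and 66% (51.8%) for the difference between lineages, and with limma on log2(TPM + 1) it was 64.3% (51.7%) between days 7 and 3 of the portal culture. Among the members, library totals gave 4 higher and 3 lower for PMSC-MF-3d against PMSC and 5 higher and 3 lower for PMSC-MF-7d against PMSC, and limma on log2(TPM + 1) gave 3 and 3 and again 5 and 3. The balance of the members in these comparisons thus moved with the scaling, through members with small changes. Tnxb, Thbs2 and Thbs3 fell under each of these settings. Spp1 also stayed higher in PMSC-MF-3d than in PMSC (3.11 with TMM). Fn1, Thbs1 and Comp stayed higher in PMSC-MF-7d than in PMSC (1.78, 0.58 and 2.31 with TMM). The median of all genes shifted with library totals to -0.44, 0.41, 0.43 and 0.44, so small changes of a member are relative to the scaling. With so many genes called in most comparisons, a call alone sets no member apart, and the sizes of the changes carry the description. The median log2 fold change of the members was 2.73 for PMSC over HSC (-0.10 over all tested genes) and lay between -0.39 and 0.55 in the other 6 comparisons (-0.07 to 0.00 over all tested genes).

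The portal and stellate cultures were also compared as endpoints. Fn1 was 3.58-fold higher in PMSC-MF-7d than in HSC-MF-7d (log2 fold change 1.84 ± 0.15, adjusted p = 9.8e-09) and Thbs3 5.13-fold, while Tnc, Spp1, Postn and Thbs2 were lower. Sparc (0.15 ± 0.10, adjusted p = 0.21), Thbs1 and Tnxb did not pass. If the stellate culture was of 3 days, PMSC-MF-3d is the matched group. Against HSC-MF-7d, PMSC-MF-3d had less Tnc, Thbs2 (-2.61 ± 0.27), Postn (-1.33 ± 0.19), Thbs1 (-0.52 ± 0.15) and Sparc (-0.33 ± 0.10), and more Thbs3 (0.92 ± 0.27) and Tnxb (0.78 ± 0.18; adjusted p at most 0.0080). Tnc, Postn and Thbs2 were thus lower and Thbs3 higher in the portal cultures at either time. Fn1 did not keep its direction: PMSC-MF-3d gave -0.39 ± 0.15 (adjusted p = 0.035), a call lost without any one of 7 of the 8 libraries (PMSC-MF-3d replicates 1 to 4 and HSC-MF-7d replicates 1, 2 and 4; -0.31 to -0.41, adjusted p = 0.051 to 0.13). Spp1 against HSC-MF-7d gave -0.24 ± 0.60 (adjusted p = 0.76).

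**Figure D4:**
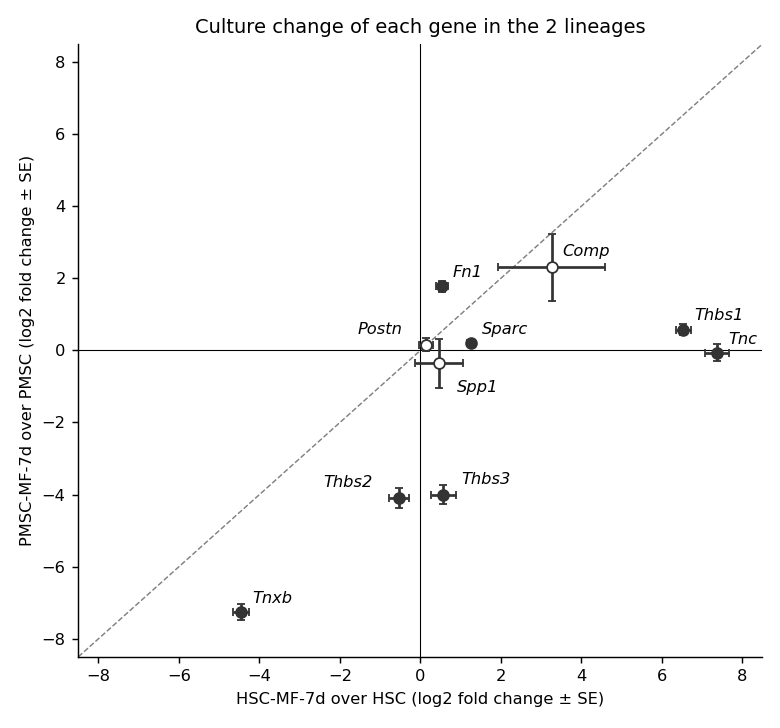
The log2 fold change (± SE) of each gene from PMSC to PMSC-MF-7d is plotted against that from HSC to HSC-MF-7d; the dashed line marks equal change and filled points differ between lineages (edgeR adjusted p under 0.05). Tnc and Thbs1 lie far right of the line, Thbs2, Thbs3 and Tnxb below it, Fn1 above it, and Postn on it.

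The difference between the lineages' 7-day changes was tested directly for each gene, and 7 of 10 members passed, 1 with a more positive change in the portal lineage and 6 with a more negative one, against a background of 60.6% of genes (31.4% and 29.2%). Fn1 was the one with the more positive portal change (1.26 ± 0.21, adjusted p = 4.2e-05). Of the other 6, Tnc, Thbs1 and Sparc (-1.05 ± 0.14, adjusted p = 1.7e-06) rose in the stellate lineage by more than their portal change, while Tnxb, Thbs2 and Thbs3 had the larger falls in the portal lineage. Postn (0.02 ± 0.26, adjusted p = 0.98), Spp1 (-0.81 ± 0.91) and Comp (-0.96 ± 1.57) did not pass. For Spp1 and Comp these standard errors leave room for large differences in either direction.

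Transcript length gave a further readout for the 6 members with several annotated transcripts. RSEM reports for each gene a mean length weighted by the estimated share of each transcript. Fibronectin is known for alternatively spliced extra domains that mark its cellular form, and 7 Fn1 transcripts were annotated. The weighted length of Fn1 ran from 7919 to 7980.4 bases in PMSC, 8096 to 8127 in PMSC-MF-3d, 8037 to 8069.8 in PMSC-MF-7d, 8017 to 8036 in HSC-MF-7d and 7865 to 7904 in HSC. All 12 cultured libraries were longer than all 8 fresh ones, HSC were shortest and PMSC-MF-3d longest.

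Postn, with 5 annotated transcripts, showed the same split on a smaller scale. Its weighted length ran from 3129.7 to 3137 bases in PMSC, 3141 to 3149 in PMSC-MF-3d, 3149 to 3151 in PMSC-MF-7d, 3169 to 3171 in HSC-MF-7d and 3126 to 3131 in HSC. The fresh groups overlapped, and the 4 HSC-MF-7d libraries were longest, although the level of Postn did not pass the test in either culture. The other 4 showed no such split. The weighted lengths of Thbs1 (5846.4 to 5846.9 bases) and Sparc (2640.4 to 2640.5 bases) were flat over all 20 libraries, those of Spp1 (1420.0 to 1437 bases) overlapped between groups, and Thbs3 ran from 3194 to 3701 bases in HSC, where its counts were few, across the range of every other group. Fn1 and Postn are shown because they split, and these lengths are a description and were not tested. Which transcripts shifted was not analysed here, and hepatocyte RNA in the fresh HSC libraries, with Alb at 2534 to 10510.0 CPM, was not separated from the Fn1 values.

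**Figure D5:**
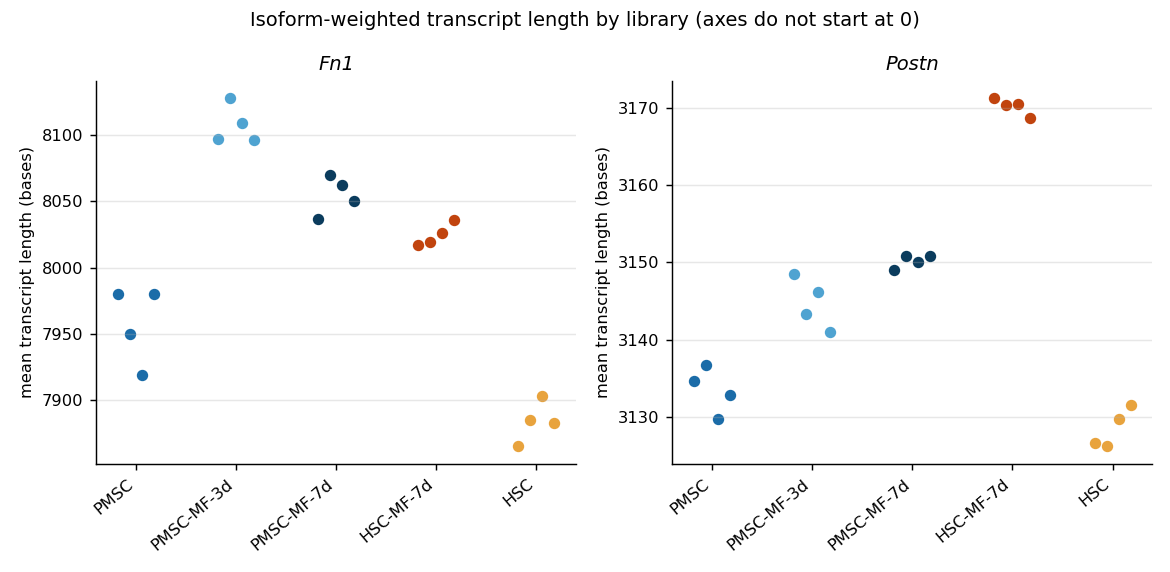
Points give the mean transcript length of Fn1 and Postn in each library, weighted by RSEM's estimate of transcript shares, by group (n = 4 each); the axes do not start at 0. Cultured libraries lie above fresh ones for both genes, with PMSC-MF-3d highest for Fn1 and HSC-MF-7d highest for Postn.

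The wider family was counted on a list of 50 other matricellular and adhesive glycoproteins, of which 41 passed the filter. In PMSC against HSC, 29 were higher and 9 lower (70.7% and 22%, against 33.6% and 40.1% of all tested genes), with a median log2 fold change of 2.19 (-0.10 over all genes). Wisp2, a CCN family member, was at least 1469-fold higher in PMSC, and nephronectin (Npnt), a basement membrane ligand of integrin alpha 8, at least 422-fold, both with no count in any HSC library (floor of 3 counts over the group). Cilp, a cartilage matrix protein, averaged 2170.5 CPM in PMSC and 0.36 CPM in HSC, and Mgp, an inhibitor of calcification, 1037 and 0.22 CPM (log2 fold changes 12.59 ± 0.81 and 12.13 ± 0.98, adjusted p at most 1.3e-09).

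On culture of portal cells more of the list fell than rose. PMSC-MF-3d against PMSC had 8 higher and 27 lower (19.5% and 65.9%, against 37.2% and 41.1% of all genes; median -3.13), and PMSC-MF-7d against PMSC 12 higher and 25 lower (29.3% and 61.0%, against 38.1% and 39%; median -2.05). HSC-MF-7d against HSC had 14 higher and 19 lower, shares of 34.1% and 46.3% that lie near the 36% and 38.5% of all genes (median -0.49). The difference between the lineages' 7-day changes passed with a more positive portal change for 8 genes and a more negative one for 21 (19.5% and 51.2%, against 31.4% and 29.2% of all genes; median -1.83, against 0.10 over all genes). Transforming growth factor-induced protein (Tgfbi) averaged 2.48 CPM in PMSC-MF-3d and 1763 CPM in PMSC, and 1.01 CPM in HSC-MF-7d and 3176 CPM in HSC. Its log2 fold changes were -9.47 ± 0.58 and -11.61 ± 0.64 (adjusted p at most 1.1e-11). The Kupffer cell and leukocyte markers summed to 3170.0 to 11800.0 CPM in HSC, 33.2 to 62.4 CPM in HSC-MF-7d and 30.1 to 41.2 CPM in PMSC. The part of such cells in the fall of Tgfbi was not tested. Vitronectin (Vtn), an adhesive plasma protein that hepatocytes make, averaged 0.13 CPM in PMSC-MF-3d and 74.3 CPM in PMSC, and 0.074 CPM in HSC-MF-7d and 234 CPM in HSC (-9.08 ± 0.55 and -11.60 ± 0.62, adjusted p at most 9.7e-12). Alb averaged 0.32 CPM in PMSC-MF-3d and 65.4 CPM in PMSC, and 0.39 CPM in HSC-MF-7d and 6463 CPM in HSC, and the part of hepatocyte RNA in the fall of Vtn was not tested.

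Between day 3 and day 7 of the portal culture 10 members of the list rose and 10 fell (24.4% each, against 18.6% and 17.4% of all genes). Wisp2 was 34.0-fold higher in PMSC-MF-7d (257 CPM) than in PMSC-MF-3d (7.56 CPM), while Cilp, Thbs4 and Abi3bp were lower (log2 fold changes -4.27 ± 0.54, -4.06 ± 0.83 and -2.77 ± 0.28, adjusted p at most 7.6e-04). Thbs4, a pentameric thrombospondin, averaged 144.8 CPM in PMSC, 61.0 CPM in PMSC-MF-3d and 3.63 CPM in PMSC-MF-7d. PMSC-MF-3d against HSC-MF-7d had 16 higher and 9 lower (39.0% and 22%, against 27.2% and 27.4%). With PMSC-MF-7d in place of PMSC-MF-3d 19 were higher and 9 lower (46.3% and 22%, against 23.9% and 23.1%), with Mgp at 114 and 0.40 CPM and Reln, a large secreted glycoprotein of stellate cells, at 0.84 and 217 CPM. Npnt was at least 2123-fold higher in HSC-MF-7d than in HSC.

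The receptors of these proteins were counted on a list of 25 genes, all tested. In PMSC against HSC, 12 were higher and 10 lower (48.0% and 40%, against 33.6% and 40.1% of all tested genes). The counts were 8 and 13 in PMSC-MF-3d against PMSC (32.0% and 52.0%, against 37.2% and 41.1%) and 10 and 6 between days 7 and 3 of the portal culture (40% and 24.0%, against 18.6% and 17.4%). They were 12 and 12 in PMSC-MF-7d against PMSC (48.0% each, against 38.1% and 39%) and 12 and 9 in HSC-MF-7d against HSC (48.0% and 36%, against 36% and 38.5%). Against HSC-MF-7d they were 9 and 13 for PMSC-MF-7d (36% and 52.0%, against 23.9% and 23.1%) and 5 and 16 for PMSC-MF-3d (20% and 64.0%, against 27.2% and 27.4%). The lineages' 7-day changes differed for 17 of them, 6 more positive and 11 more negative in the portal lineage (24.0% and 44.0%, against 31.4% and 29.2%). Several of these shares lie near those of all genes, and lists of this size are described here, not tested. Median log2 fold changes of the receptors lay between -0.82 and 0.46. Integrin alpha 5 (Itga5), the main fibronectin receptor subunit, averaged 807.7 CPM in HSC-MF-7d and 64.7 CPM in HSC (log2 fold change 3.64 ± 0.18, adjusted p = 7.5e-13). Integrin alpha 8 (Itga8), a receptor subunit for nephronectin and tenascin-C, averaged 9.17 CPM in PMSC-MF-3d and 545 CPM in PMSC (-5.89 ± 0.31, adjusted p = 1.1e-12). It averaged 32.5 CPM in HSC-MF-7d and 325 CPM in HSC (-3.32 ± 0.27, adjusted p = 1.3e-09).

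The cultured lineages differed in integrin subunits as well. Integrin beta 3 (Itgb3), which pairs with the alpha v subunit to bind osteopontin and fibronectin, averaged 14.8 CPM in PMSC-MF-7d and 185 CPM in HSC-MF-7d (log2 fold change -3.64 ± 0.33, adjusted p = 3.4e-08). Its difference was larger in fresh cells, at 8.22 CPM in PMSC and 361 CPM in HSC (-5.52 ± 0.37, adjusted p = 9.6e-11). Integrin alpha 4 (Itga4), which binds spliced fibronectin and osteopontin, averaged 12.1 CPM in PMSC-MF-7d and 187 CPM in HSC-MF-7d (-3.96 ± 0.39, adjusted p = 8.4e-08). In fresh cells Itga4 averaged 5.67 CPM in PMSC and 26.5 CPM in HSC. Cd36, the scavenger receptor that binds thrombospondin 1, averaged 8.71 CPM in PMSC and 406 CPM in HSC, and Stab1, a scavenger receptor for SPARC, 14.8 and 1044 CPM. Sinusoidal endothelial cells and macrophages also express both receptors, and markers of those cells were higher in HSC (sums above). Their part in the difference was not tested.

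Genes whose levels ran most like a member's over the 20 libraries were found by Pearson correlation of log2 CPM among 11095 genes. The libraries fall into 5 groups, so such values mostly restate the order of the groups. Tnxb was most like Ddx5 (r = 0.994), Bach1 (0.992) and Inmt (0.991), and Thbs2 most like Usp35 (0.986), Il4ra (0.976) and Rora (0.974). Thbs3 was most like Asap3 (0.985), Plat (0.972) and Cry2 (0.971). Thbs1 was most like Mum1l1 (0.993), Gdf11 (0.988) and Flnc (0.986), and Tnc most like Atp13a3 (0.973), Wfs1 (0.962) and Dhrs9 (0.947). Fn1 was most like Parp3 (0.935), Col2a1 (0.927) and Cd248 (0.908). Among the members themselves Thbs1 and Sparc ran together (r = 0.94), as did Tnxb and Thbs2 (r = 0.84), while Thbs1 and Thbs2 did not (r = -0.16).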

How the data were processed

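Per the labels' protocols, RNA came from an RNeasy Micro kit and stranded mRNA libraries from a KAPA kit. FastQC, Trimmomatic, STAR 2.5.3a, RSEM 1.2.28 and mm10 are named in the submitters' processing notes. The authors deposited, per library and gene, expected counts (RSEM's estimates, not normalized), TPM, FPKM and a transcript length, per the file headers. FPKM values were deposited by the authors and not used here. Expected counts were rounded to whole numbers (0.64% to 0.87% of genes per library were not whole). Genes with low counts were removed with filterByExpr (10097 of 24848), libraries were scaled by TMM, and group means over all 20 libraries were fitted with edgeR 4.0.16 (robust quasi-likelihood, R 4.3.3), with Benjamini-Hochberg adjustment over all tested genes. CPM rest on TMM library sizes. The fit was tested on simulated data in which few genes changed, so that test cannot check the scaling where many genes do. Alternatives were DESeq2 1.42.0, limma 3.58.1 on log2(TPM + 1) and log2(TPM + 0.1), library totals, other filters, the compared groups alone, a replicate block and leaving out each library. Genes of the 2 lists were named by size among those called, up to 4 a comparison, with a mean of at least 10 CPM in one group. Promoters came from RefSeq (7 of 10 members matched). The members and lists were chosen with earlier results of these data known. The depth above sets the precision, and limits from counts cover counting error only.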

Additional observations from a re-analysis of the deposited data

Results flagged for a closer look

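Within groups, 6 of 50 gene-by-group sets held a library set off from the other 3 by a gap large against the set's own range. Chance alone would flag about 1 in 20. Such a gap can be small beside the level of the gene. Tnc and Thbs1 were lowest in HSC-MF-7d replicate 1, at 7000.4 and 11186 CPM, though the other 3 libraries had only 11563 to 11613 CPM of Thbs1. Postn was highest in PMSC replicate 4, at 566 CPM, and Thbs1 in PMSC-MF-3d replicate 2, at 8948 CPM. In PMSC-MF-7d, Thbs3 was lowest in replicate 2, at 13.3 CPM, and Comp highest in replicate 1, at 11.7 CPM.

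The 7-day change on culture differed between the portal and the stellate lineage, by edgeR's test of the difference itself, for 7 members. The difference (portal minus stellate, log2) was 1.26 for Fn1, -7.43 for Tnc, -2.80 for Tnxb, -5.95 for Thbs1, -3.56 for Thbs2, -4.57 for Thbs3 and -1.05 for Sparc. If the stellate culture lasted 3 days, as the series description has it, these differences also hold a difference in culture time, and lineage and time cannot be told apart.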

How the results depend on the processing

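Counts of members called ranged over the alternatives from 8 to 10 for PMSC against HSC, 5 to 7 for PMSC-MF-3d against PMSC, 6 to 8 between days 7 and 3 of the portal culture, 5 to 8 for PMSC-MF-7d against PMSC, 5 to 7 for HSC-MF-7d against HSC, 6 to 8 and 7 to 8 for PMSC-MF-7d and PMSC-MF-3d against HSC-MF-7d, and stayed at 7 for the difference between lineages. Outside the runs that left out a library, 581 member values kept their direction and side of the threshold, 23 newly passed, 15 no longer passed and 19 changed sign. The cause was not tested. Library totals leave out the TMM factors, which were 0.739 to 0.811 for PMSC and 1.06 to 1.126 for the portal cultures. With library totals, PMSC-MF-3d against PMSC gave 0.06 for Fn1 and 0.23 for both Postn and Sparc, and PMSC-MF-7d against PMSC 0.40 for Tnc and 0.12 for Spp1. With limma on log2(TPM + 1) and log2(TPM + 0.1), PMSC-MF-3d against PMSC gave 0.094 for Postn and 0.11 for Sparc under both, and PMSC-MF-7d against PMSC 0.44 for Tnc under both and 1.03 and 1.51 for Spp1. The difference between lineages gave 0.31 and 0.78 for Spp1 and 0.81 and 0.35 for Comp, and with DESeq2 -0.066 for Postn.

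Whether replicate numbers pair the samples was not settled. Over all comparisons of groups, deviations of same-numbered libraries correlated at -0.04 to 0.14, and libraries did not always correlate best with their own number. Between the portal cultures, replicates 1, 2 and 4 matched their own number best (0.12, 0.1 and 0.09), and replicate 3 did not (0). Values this low, with 4 libraries in a group, cannot show whether same-numbered libraries share an animal or culture. With the replicate block, 10772 genes were called for PMSC against HSC (10872 without it), and 5094 between days 7 and 3 of the portal culture (5310 without it). Among members the block ended the calls of Comp for PMSC-MF-7d against PMSC (1.79, adjusted p = 0.11) and against HSC-MF-7d (2.27, adjusted p = 0.070), let Tnxb pass between both 7-day cultures (0.43, adjusted p = 0.012) and turned the difference between lineages for Postn to -0.0099. It changed no other member's call.

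Leaving out 1 library at a time, 672 values kept direction and call, 9 newly passed, 28 no longer passed and 11 changed sign. The values that changed sign ranged from -0.23 to 0.16 for the lineage difference of Postn, -0.74 to 0.11, -0.21 to 0.16 and -0.10 to 0.31 for Spp1, Tnc and Postn in PMSC-MF-7d against PMSC, and -0.84 to 0.025 for Comp in PMSC-MF-3d against HSC-MF-7d. Depth limits Comp most, with 4 counts in all HSC libraries.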
